A study of Mus musculus with 16 samples.

Results

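The RNA-seq libraries of the first Eef1d exon 5 knockout clone (KO1, clone #1) were compared with those of wild-type (WT) Hepa1-6 cells, which makes 4 of the 16 libraries of the series, 2 of each line. Hepa1-6 is a mouse hepatoma line that keeps part of the gene expression of hepatocytes. KO1 is a single-cell clone from a CRISPR-Cas9 deletion with the guide plasmids pS1 and pS4. Its parent cells were transfected and selected with puromycin before cloning, steps that the methods do not describe for the WT cells, which carry no deletion. The other libraries are the RNA-seq of the clones #2 (KO2, the same plasmids) and #3 (KO3, pS2 and pS4) and the Ribo-seq of all 4 lines. KO1 stands for 1 clone, so the deletion and whatever else sets this clone apart cannot be told apart by KO1 and WT alone. The methods call the Ribo-seq replicates, from the same lysates as the RNA-seq, biological, but neither they nor the labels say that the 2 replicates of a line were separate cultures. The p-values measure the spread between these samples, which may be technical.

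Eef1d encodes a subunit of EEF1B, the complex that exchanges the nucleotide on the elongation factor EEF1A, which brings aminoacyl-tRNA to the ribosome. Cells that run short of an amino acid activate the kinase GCN2 (gene Eif2ak4), and other kinases do the same for ER stress, heme shortage or viral RNA. All of them phosphorylate the initiation factor eIF2, which lowers general translation and raises translation of the transcription factor ATF4. ATF4 binds C/EBP-ATF response elements and drives genes for amino acid synthesis, amino acid uptake and tRNA charging. Hepatocytes are known for secreted plasma proteins, whose genes are driven by a set of factors that includes HNF4A and C/EBPα.

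Exon 5 of Eef1d lies at chr15:75900691-75900762 of GRCm38, on the minus strand, and its 72 bases code for 24 codons. It is shown here because it is the part that the knockout was designed to remove, in capitals, with 30 bases of the introns on each side in lower case.
Eef1d exon 5: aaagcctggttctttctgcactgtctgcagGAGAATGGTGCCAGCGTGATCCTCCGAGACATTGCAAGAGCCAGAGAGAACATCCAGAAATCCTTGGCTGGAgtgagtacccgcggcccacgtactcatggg
The transcript with exon 5 (ENSMUST00000154584.8) had 2386 and 2582 counts in the WT libraries and 1897 and 1717 in KO1. The transcript without it (ENSMUST00000109972.8) had 2057 and 2222 counts in WT and 2072 and 1893 in KO1. Of the pair, the transcript with the exon thus held more counts in each WT library and fewer in each KO1 library. A read on shared exons is counted on every transcript that it fits, so these counts are not separate molecules. By the rule of 1 transcript per gene, Eef1d stands with a longer transcript that also lacks exon 5 (ENSMUST00000137426.7), and its level was 192 and 194 CPM (counts scaled to the library total) in WT and 184 and 181 CPM in KO1. That log2 difference of -0.08 was not called (SE 0.057, edgeR adjusted p = 0.272), but with the transcript that has the most RNA-seq counts it was -0.45 and called. The latter transcript had 2451 and 2639 counts in WT and 1917 and 1736 in KO1, close to those of the transcript with exon 5. Whether its fall reflects less Eef1d RNA or the missing exon was not tested.

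The gene table held 22392 gene symbols, of which 11515 had enough counts to be tested. The 4 libraries held between 24726706 and 27720878 counts over all transcripts, and between 10493028 and 11645854 over 1 transcript per gene. Replicates were alike in both lines, with a median absolute difference between replicates of 0.098 on the log2 scale in WT and 0.107 in KO1. The median absolute difference between KO1 and WT was 0.257.

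RNA levels differed for a large part of the genes. With an adjusted p under 0.05 as the threshold for a call, 2540 genes were higher in KO1 and 2836 were lower, which are 22.1% and 24.6% of the genes tested. Among them, 355 were higher and 525 lower by at least 2-fold. DESeq2's Wald test called 3392 genes in place of 5376, 1507 higher and 1885 lower.

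**Figure D1:**
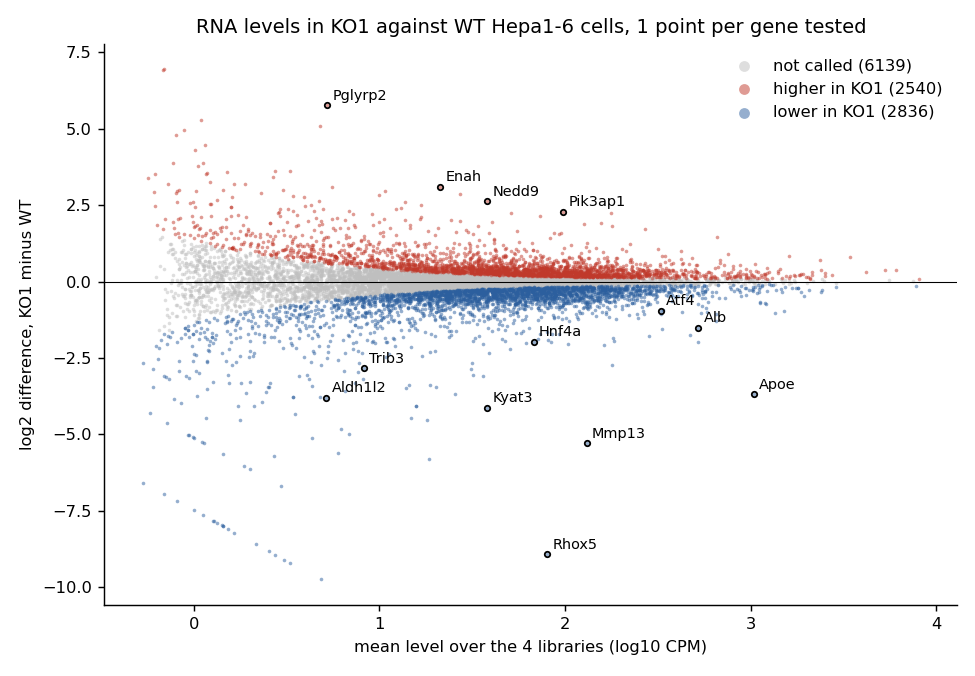
Each point is 1 of the 11515 genes tested, with its mean level over the 2 WT and 2 KO1 libraries (log10 CPM) on the x axis and its log2 difference (KO1 minus WT) on the y axis. Colours mark the 2540 genes called higher and the 2836 called lower. Of the labelled genes, Rhox5 had the largest fall (-8.92) and Pglyrp2 the largest rise (5.77).

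The 12 largest falls are given among called genes with a mean of at least 10 CPM in WT and no overlap of replicates. All but Apoe (147 and 150 CPM) had at most 6.84 CPM in KO1. Genes below that level are left out, such as Mx1, with a log2 difference of -7.99. Rhox5, a homeobox gene of the X chromosome that is known for its expression in the reproductive tract and in tumor lines, had 150 and 168 CPM in WT and 0.35 and 0.285 CPM in KO1. Its log2 difference was -8.92 (SE 0.174, edgeR adjusted p = 1.02e-42), and the levels in KO2 (1.12 and 0.651 CPM) and KO3 (0.317 and 0.0819 CPM) were low too. Matrix metalloproteinases, which cleave extracellular matrix proteins, made up 2 more of the 12 largest falls. Mmp13, a collagenase, had 269 and 240 CPM in WT and 6.84 and 6.17 CPM in KO1, a log2 difference of -5.29 (SE 0.098). Mmp10, a stromelysin, had 39.6 and 30 CPM in WT and 1.49 and 1.52 CPM in KO1, a log2 difference of -4.52. Both genes lie on chromosome 9 (Mmp13 at 7272514-7283331, Mmp10 at 7502352-7510240), and Mmp3, between them, fell as well, from 37 and 40 counts to 1 and 2.

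Kyat3, an enzyme of the kynurenine pathway, fell from 72.4 and 70.6 CPM to 4.03 and 4.18 CPM, a log2 difference of -4.12 (SE 0.133). Its level in KO2 (80.7 and 76.6 CPM) and KO3 (62.8 and 62.0 CPM) was near that of WT, with no call in either. Ano1, a calcium-activated chloride channel, fell by 4.47 on the log2 scale in KO1 and was called higher in KO2 (0.64) and KO3 (1.04). Tnfrsf11b, the decoy receptor osteoprotegerin, fell by 5.62, and it was called lower in KO2 (-6.89) and higher in KO3 (2.82). Crisp1, S1pr1 (a receptor for sphingosine 1-phosphate) and Insrr (a receptor related to the insulin receptor) had log2 differences of -5.81, -4.98 and -4.84. Crisp1 and S1pr1 were called lower in KO2 (-1.33 and -2.20) and KO3 (-0.32 and -0.59) as well, and Insrr in KO3 (-1.36) and not in KO2.

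In 5 genes with a mean of at least 50 counts in WT, both KO1 libraries held no count. Ccdc112 had 68 and 70 counts in WT, so it was at least 44.7-fold lower in KO1, with the floor set at 3 counts over the group. Kctd1 had 62 and 61 counts in WT and Slc9b1 49 and 66, and the bounds were 39.8-fold and 37.2-fold. Kctd1 and Slc9b1 lay near their WT level in KO2 and KO3, with no call in either, and Ccdc112 was called lower in KO3 (-2.47) and not in KO2. No gene with at least 50 counts on average in KO1 was at 0 in both WT libraries.

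The 12 largest rises are given among called genes with a mean of at least 10 CPM in KO1 and no overlap of replicates. All but Pik3ap1 had at most 10.9 CPM in WT. Genes below that level are left out, such as Slc2a2, which rose by 3.58. Pglyrp2, a secreted amidase of peptidoglycan made in liver, had 0.092 and 0.258 CPM in WT and 11 and 9.49 CPM in KO1, a log2 difference of 5.77 (SE 0.427, edgeR adjusted p = 7.71e-17). Enah, an actin regulator at the cell edge, rose from 3.96 and 4.82 CPM to 38.1 and 37.6 CPM (log2 difference 3.10, SE 0.156). Nedd9, a scaffold protein of focal adhesions, rose from 10.9 and 10.3 CPM to 67.7 and 63.8 CPM (2.63, SE 0.113), and in KO2 (12.4 and 11.1 CPM) and KO3 (11.7 and 10.9 CPM) it lay near WT. Pik3ap1, an adaptor of PI3K, was the most abundant of the 12, at 33.4 and 33.2 CPM in WT and 171 and 153 CPM in KO1 (2.28, SE 0.079). The others were Ttn, Sytl5, Tent5b, Dpysl3, Zbtb7c, Mmp9 (a gelatinase), Edn1 (endothelin 1) and Adap1, with log2 differences from 2.32 to 2.95. In none of the 24 genes with the largest changes did the KO1 and WT replicates overlap, which the rule for naming them required.

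The changes were unevenly spread over the genome. This pattern was noticed in the data and is given as a description, without a test. The median log2 difference over all genes tested was 0.00233, but over the 866 genes of chromosome 7 it was -0.44, with 557 genes called lower (64.3%) and 37 higher (4.27%). On chromosome 9 the median was -0.36, with 374 of 645 genes lower and 19 higher, and on chromosome 16 it was -0.33, with 206 of 356 lower and 15 higher. Chromosome 7 held 7.44% and 7.46% of the counts in the WT libraries and 5.52% and 5.51% in KO1. The same genes had medians in KO2 and KO3 of 0.00492 and -0.00842 for chromosome 7, 0.072 and 0.042 for chromosome 9 and 0.069 and 0.099 for chromosome 16. The direct differences between KO1 and KO2, which do not use the WT libraries, had medians of -0.43, -0.43 and -0.42 on these chromosomes. KO2 and KO3 had shifts of their own, such as chromosome 1 in KO2 (0.27) and chromosome 6 in KO3 (-0.33).

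**Figure D2:**
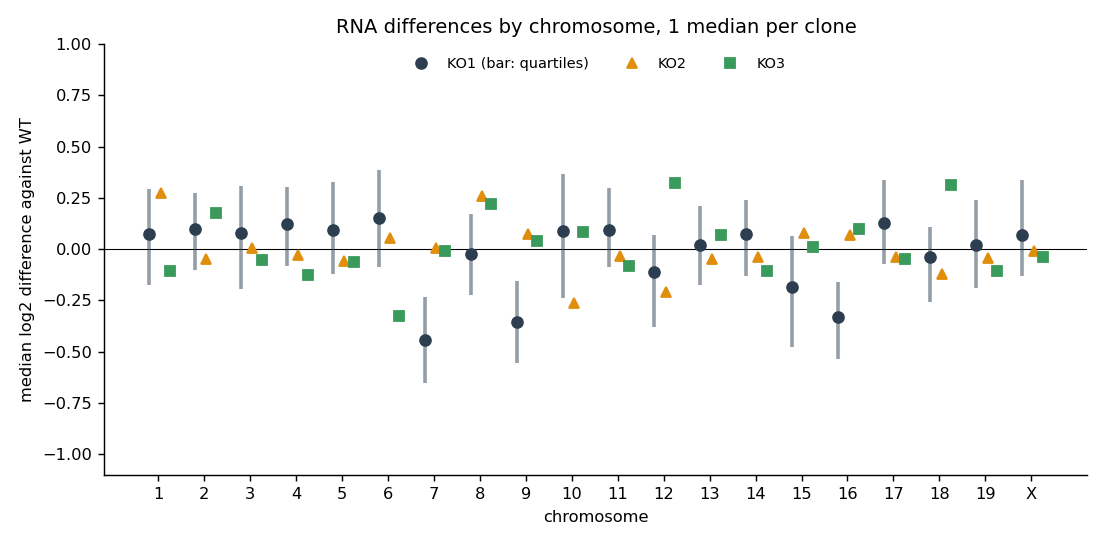
The y axis gives the median log2 difference against WT over the tested genes of each chromosome (x axis), as circles for KO1, triangles for KO2 and squares for KO3, and each bar spans the lower to the upper quartile of the genes in KO1. The KO1 medians of chromosomes 7, 9 and 16 lie at -0.44, -0.36 and -0.33, where those of KO2 and KO3 lie between -0.00842 and 0.099.

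On chromosome 15 the shift began beside Eef1d. The 40 tested genes before Eef1d, from Ndufb9 to Naprt, had a median log2 difference of -0.0232 in KO1, with 10 called higher and 14 lower. The 40 genes after it, from Tigd5 to Arhgap39, had a median of -0.51, with 1 higher and 29 lower. In KO2 the medians of these 2 windows were 0.075 and 0.068, and in KO3 they were 0.032 and 0.104. When each chromosome was divided into runs of at least 30 genes by their log2 differences, with no knowledge of Eef1d, the runs of chromosome 15 changed between Gsdmd and Naprt, at 75.9 Mb of GRCm38, and Eef1d lies next to Naprt. Eef1d, with its log2 difference of -0.08, lies in the run from Naprt to Abcd2 (75.9 to 91.2 Mb). That run held 187 genes with a median of -0.42, 128 of them lower and 4 higher. The run before it, 161 genes, had a median of 0.033, and the 111 genes after it had -0.12.

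**Figure D3:**
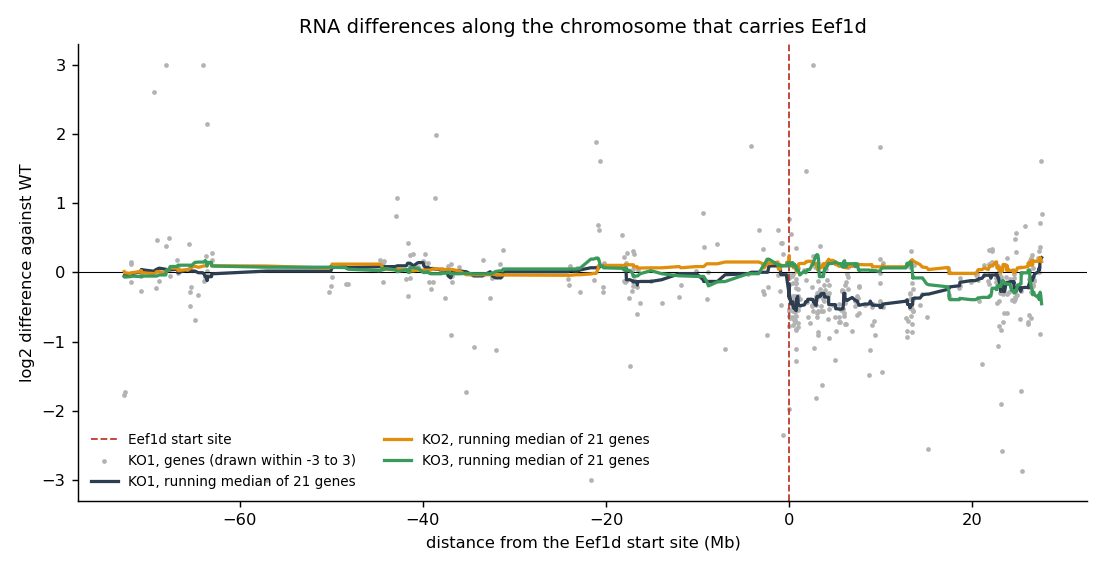
Grey points are the log2 differences (KO1 minus WT, y axis, drawn within -3 to 3) of the tested genes of chromosome 15 by their distance in Mb from the start site of Eef1d (x axis, dashed line at 0), and lines are running medians over 21 genes in KO1, KO2 and KO3. The KO1 line drops at Eef1d, where the median is -0.0232 over the 40 genes on one side and -0.51 over the 40 genes on the other.

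The same division gave 8 runs with a median of at least 0.25 in size in KO1, 4 lower and 4 higher. The lower ones were all of chromosomes 7 and 9, chromosome 16 from Mzt2 on, and the part of chromosome 15 from Naprt to Abcd2, which holds Eef1d. The higher one with the largest median was the end of chromosome 5, from Fam20c to Rfc3, with 99 genes, a median of 0.55, and 82 genes higher against 4 lower. The others were chromosome 10 from Col6a1 to Gas2l3 (0.29), chromosome 5 from Pkd2 to Tmem175 (0.34) and chromosome 19 from Gpam on (0.28). The 4 lower runs held 17.2% of the genes tested and 43.7% of all genes called lower. In the 9202 genes outside the 8 runs, 2263 were higher (24.6%) and 1581 lower (17.2%). DNA copy number was not measured here, and the cause of these shifts was not tested. They touch the results below, so the counts of each gene list are given with and without the genes of these 8 runs. Over all genes tested, 24.6% were lower and 22.1% higher, and outside the 8 runs it was 17.2% and 24.6%, and the counts of the lists are to be read against these shares.

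Genes of amino acid stress were lower in KO1. Of the 58 ATF4 and amino acid response genes in the list, 53 were tested, 46 were lower and 2 were higher, with a median log2 difference of -0.47 (all genes tested: 24.6% lower, median 0.00233). Of the 5 that were not tested, Adm2, Fgf21 and Stc2 had no counts in these 4 libraries. Outside the 8 runs, 38 of 44 members were lower and 2 higher, with a median of -0.45. The 2 that were higher were Lonp1, a mitochondrial protease, with 4071 and 4399 counts in WT and 6614 and 5672 counts in KO1 (log2 difference 0.57, SE 0.047), and Eprs, the glutamyl-prolyl-tRNA synthetase, by 0.12. Eprs was no longer called with DESeq2, with all 8 RNA-seq libraries in 1 fit, without either WT replicate or without KO1 replicate 2. The summed level of the list was 9416 and 9072 CPM in WT, 6869 and 6848 CPM in KO1, 9890 and 9613 CPM in KO2, and 10798 and 10758 CPM in KO3.

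Atf4 itself, at 80255184-80257541 on the plus strand of chromosome 15, had 454 and 411 CPM in WT and 227 and 219 CPM in KO1. Its log2 difference was -0.96 (SE 0.053, edgeR adjusted p = 5.03e-22). It lies in the run that holds Eef1d, whose median was -0.42, so it was lower than its neighbours by a further 0.53. Atf4 was called higher in KO2 (563 and 476 CPM, log2 difference 0.28) and KO3 (503 and 493 CPM, 0.22), and no KO1 value overlapped any value of the other 3 lines.

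The 5 largest falls of the list were those of Aldh1l2, Trib3, Slc6a9, Cth and Chac1. Aldh1l2, a mitochondrial enzyme of folate metabolism, had 10.9 and 8.44 CPM in WT and 0.876 and 0.475 CPM in KO1, a log2 difference of -3.80 (SE 0.34, edgeR adjusted p = 6.84e-14). Trib3, a pseudokinase that restrains ATF4, had 14.8 and 13.9 CPM in WT and 1.05 and 3.04 CPM in KO1 (-2.83, SE 0.258). The glycine transporter Slc6a9 fell by 2.62, Cth, the last enzyme of cysteine synthesis, by 2.32, and Chac1, which degrades glutathione, by 2.10. Abundant members fell too. Phgdh, the entry enzyme of serine synthesis, fell from 1828 and 1788 CPM to 894 and 882 CPM (-1.03, SE 0.039, edgeR adjusted p = 5.25e-29). Cars, the cysteinyl-tRNA synthetase, fell from 288 and 276 CPM to 76.2 and 82.1 CPM (-1.84, SE 0.062), and it lies on chromosome 7. Asns, asparagine synthetase, fell from 213 and 212 CPM to 136 and 134 CPM (-0.66, SE 0.059). Ddit3, the stress factor CHOP, fell from 27.4 and 20.9 CPM to 17.7 and 15.7 CPM (-0.53, SE 0.138), a call that was lost without WT replicate 1, where the log2 difference was -0.33 (edgeR adjusted p = 0.137).

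**Figure D4:**
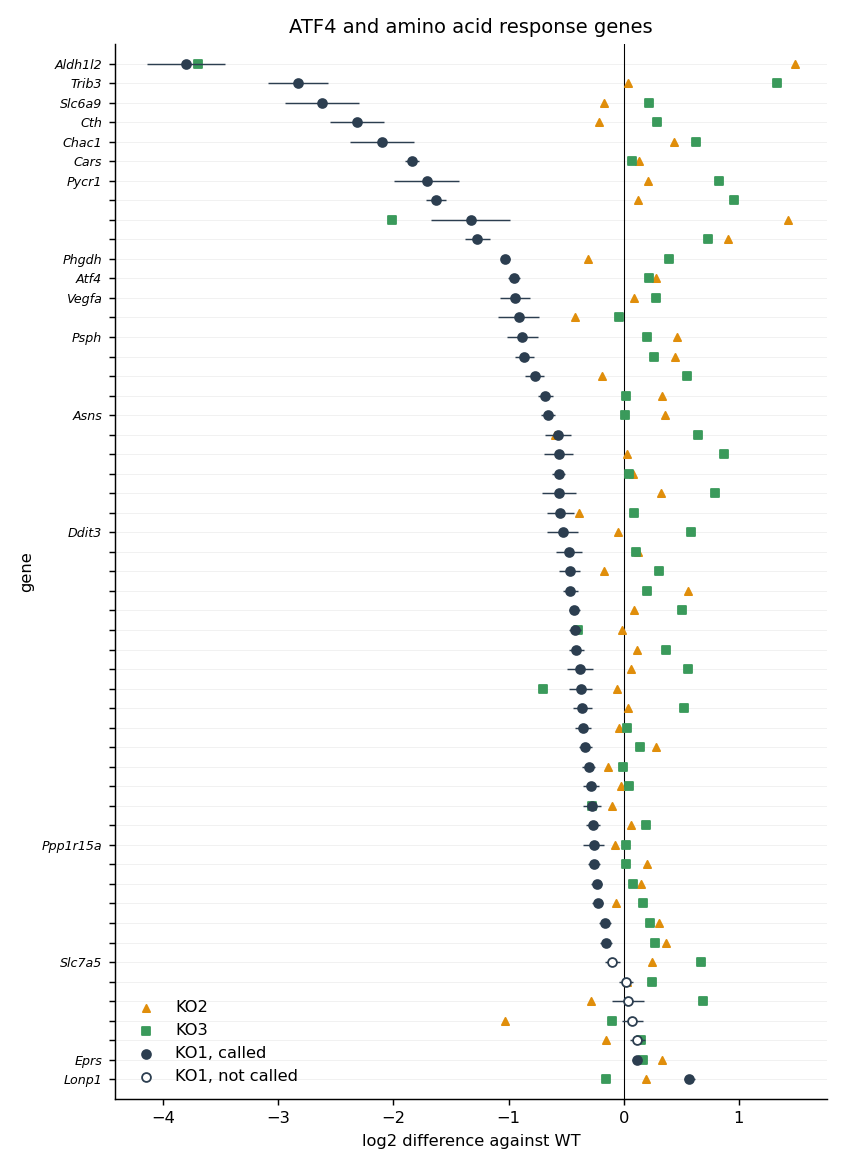
Each row is 1 of the 53 tested ATF4 and amino acid response genes with its log2 difference against WT on the x axis, as circles with their SE for KO1 (filled where called), triangles for KO2 and squares for KO3. Names are printed for genes that the text describes, and the circles of 46 genes lie left of 0 and are called, with medians of -0.47 for KO1, 0.086 for KO2 and 0.207 for KO3.

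The same genes did not fall together in the other clones. In KO2, 4 members were lower and 17 higher, where 8.86% and 11.6% of all genes tested were. In KO3, 6 were lower and 29 higher, where it was 22.3% and 23.1%. Both comparisons share the WT libraries with KO1. In the direct comparison of KO1 with KO2, 44 members were lower in KO1 and 3 higher, where 50.7% of all genes were called in either direction. In that with KO3, 44 were lower and 2 higher, where 60.1% of all genes were called. Aldh1l2 was an exception in KO3, with a log2 difference against WT of -3.70, while it was 1.49 in KO2.

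The promoters of 42 of the 53 tested members were found in RefSeq's GRCm38.p6 table, from 250 bases before to 50 bases after the start site. The letters TGATGNAA, a core of the C/EBP-ATF response element, were searched on both strands. They were present in 16 of the 42 genes (38.1%), in 2.75% of the tested genes with a promoter in the table, and in 3.97% of all 32851 promoters. The list was chosen as genes of the ATF4 response, so its share of matches does not depend on KO1. Among the members that were lower in KO1, 15 of 37 held a match, and of the others 1 of 5. Promoters of 3 members are shown, with the match in capitals, because their genes are described above (log2 differences of -2.83, -2.10 and -0.66), while the other falls with a match reached down to -0.15 for Aars. The match of Trib3 (chr2:152344011-152344310, minus strand) begins 14 bases after the start site, that of Chac1 (chr2:119350992-119351291, plus strand) 193 bases before it, and that of Asns (chr6:7693160-7693459, minus strand) 23 bases before it.
Trib3: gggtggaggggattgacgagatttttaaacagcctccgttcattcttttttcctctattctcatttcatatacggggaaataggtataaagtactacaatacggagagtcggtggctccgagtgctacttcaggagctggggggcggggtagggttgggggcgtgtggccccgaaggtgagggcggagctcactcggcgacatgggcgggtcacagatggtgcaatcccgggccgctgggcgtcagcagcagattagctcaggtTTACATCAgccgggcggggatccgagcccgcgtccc
Chac1: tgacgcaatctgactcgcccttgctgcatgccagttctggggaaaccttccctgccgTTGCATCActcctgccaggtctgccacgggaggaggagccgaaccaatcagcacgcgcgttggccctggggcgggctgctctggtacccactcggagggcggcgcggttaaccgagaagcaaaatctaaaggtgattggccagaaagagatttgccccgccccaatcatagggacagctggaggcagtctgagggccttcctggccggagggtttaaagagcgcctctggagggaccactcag
Asns: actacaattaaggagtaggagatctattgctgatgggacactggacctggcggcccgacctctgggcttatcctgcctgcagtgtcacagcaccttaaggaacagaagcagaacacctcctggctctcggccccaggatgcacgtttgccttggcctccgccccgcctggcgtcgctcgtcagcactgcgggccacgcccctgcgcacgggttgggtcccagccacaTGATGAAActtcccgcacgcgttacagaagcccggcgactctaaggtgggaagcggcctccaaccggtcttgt
A match is a run of letters and not a measured site of binding.

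The kinases upstream of ATF4 went the other way or were not called. Eif2ak1, the heme-regulated kinase, rose from 59.1 and 62.6 CPM to 107 and 100 CPM (log2 difference 0.77, SE 0.075), and it lies in the raised end of chromosome 5, whose median was 0.55. Eif2ak3, the ER stress kinase PERK, rose from 40.4 and 43.7 CPM to 53.3 and 55.9 CPM (0.38, SE 0.09). Eif2ak4, the amino acid sensor GCN2, had 64.3 and 67.1 CPM in WT and 78.3 and 66.8 CPM in KO1 and was not called (0.145, edgeR adjusted p = 0.141), nor was Eif2ak2. Impact, an inhibitor of GCN2 signaling, rose from 24 and 26.4 CPM to 40.8 and 46.3 CPM (0.78, SE 0.106). Of all 25 regulators tested, 5 were higher and 13 lower (outside the 8 runs 4 and 7 of 18), where 22.1% and 24.6% of all genes tested were. Of these 13, all but the initiation factor subunits Eif2b5, Eif2b2 and Eif2s1 are members of the ATF4 list as well. Among them, the eIF2 phosphatase subunit Ppp1r15a fell by 0.26.

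Enzymes, transporters and synthetases were affected to different degrees. Of 27 genes for serine, glycine, proline and asparagine synthesis, 15 were lower and 3 higher (median -0.28), and outside the 8 runs 12 and 3 of 23 (median -0.23), where 24.6% of all genes tested were lower and 22.1% higher. Pycr1, the last enzyme of proline synthesis, fell by 1.71 and Psph, the last of serine synthesis, by 0.88, while the genes that rose were Gls2 (1.47), Aldh4a1 (0.95), which act in glutamine and proline breakdown, and Shmt1 (0.26). Of 26 amino acid transporters, 9 were lower and 3 higher, and 14 were not called (outside the 8 runs 7 lower and 3 higher of 22). The leucine transporter Slc7a5 had 139 and 129 CPM in WT and 132 and 118 CPM in KO1 (-0.1, edgeR adjusted p = 0.231). Of 23 cytosolic aminoacyl-tRNA synthetases and their partners, 11 were lower and 3 higher (Vars, Farsa and Eprs), with a median of -0.11, and outside the 8 runs 9 were lower and 3 higher of 20. In the same list, 15 genes were lower in KO1 than in KO2 and 4 higher, where 26.9% and 23.8% of all genes were, and 17 were lower than in KO3 and 1 higher, where 31.1% and 29% were. ER chaperones and unfolded protein response genes were mixed, with 13 lower and 4 higher of 26, and outside the 8 runs 7 and 3 of 18. Creld2 fell by 0.85, in the run that holds Eef1d with its median of -0.42, and Xbp1 by 0.52. Calr rose by 0.31, and the chaperone Hspa5 (BiP) had 525 and 506 CPM in WT and 530 and 505 CPM in KO1.

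Of 9 tested genes of the EEF1B complex and its partners, 5 were higher in KO1 and none lower, and outside the 8 runs 3 of 6 were higher, where 22.1% of all genes tested were higher. Eef1b2, the other exchange subunit, rose from 1254 and 1279 CPM to 1509 and 1570 CPM (log2 difference 0.28, SE 0.039). Eef1g rose by 0.15 and Vars, the valyl-tRNA synthetase that joins the complex, from 454 and 449 CPM to 582 and 551 CPM (0.33, SE 0.046). Eef2, which moves the ribosome along, rose by 0.38 and lies in the raised run of chromosome 10 (median 0.29), only 0.089 above that median. Eef1a1 rose by 0.1 and lies on chromosome 9, whose median was -0.36. Eef1g was no longer called without WT replicate 1 (edgeR adjusted p = 0.0634). The ER membrane proteins Ktn1 (89.2 and 96.9 CPM in WT, 94.5 and 104 CPM in KO1) and Rrbp1 (267 and 241 CPM, 247 and 223 CPM) were not called. Rrbp1 was called lower with the replicate number as a block (-0.11), without KO1 replicate 1 (-0.19) and without WT replicate 2 (-0.19).

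More hepatocyte genes were lower than higher. In 4 lists of liver plasma proteins, liver transcription factors, hepatocyte enzymes and liver transporters, 216 genes were in the table and 99 were tested. Of these, 53 were lower, 25 higher and 21 not called, with a median log2 difference of -0.37. The shares of all genes tested were 24.6% lower and 22.1% higher (outside the 8 runs 17.2% and 24.6%), so the 25 higher genes are near their share. In bulk libraries, fewer cells that express a gene and less of its RNA per cell cannot be told apart. The WT cells themselves hold only part of the hepatocyte program, since 48 of the 216 genes had no counts in any of the 4 libraries, among them Apoa4, Apoc3, Fgg and Plg. Outside the 8 runs, 33 of 78 were lower and 24 higher, with a median of -0.15. The number of higher genes was 15 with DESeq2 and 16 without WT replicate 2. The defining markers of hepatocytes and hepatoma cells had 8 tested members, of which 7 were lower and none higher (outside the 8 runs 6 of 7 lower), and their summed level was 4677 and 4552 CPM in WT and 2256 and 2261 CPM in KO1.

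Most of the tested plasma proteins and apolipoproteins were lower. Of 32 tested, 24 were lower and 5 higher, with a median of -0.98, and outside the 8 runs 14 of 22 were lower, with a median of -0.63. Of all genes tested, 24.6% were lower and 22.1% higher, and outside the 8 runs 17.2% were lower. Apoe, the ligand that clears lipoprotein remnants, had 1897 and 1952 CPM in WT and 147 and 150 CPM in KO1, a 12.9-fold fall (log2 difference -3.69, SE 0.046, edgeR adjusted p = 4.48e-52). Its neighbours on chromosome 7 fell with it. Apoc2, an activator of lipoprotein lipase, had 31.1 and 28 CPM in WT and 1.93 and 1.52 CPM in KO1 (-4.08, SE 0.204). Apoc4 fell from 50.1 and 51.9 CPM to 14.5 and 13.9 CPM (-1.85), and Apoc1 from 29 and 19 counts to 0 and 1. The 4 genes lie between 19671579 and 19699188 on the minus strand. The read-through gene Gm44805 had the counts of Apoc2 in every library, so it is the same reads counted again. The falls in this cluster are far below the median of chromosome 7 (-0.44). In KO2, Apoc2 was called higher (1.23) and Apoe was not called, and in KO3 Apoc2 was lower (-1.11) and Apoe higher (0.34).

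Albumin and alpha-fetoprotein, the main plasma proteins of adult and fetal liver, fell as well. Alb had 793 and 751 CPM in WT and 266 and 277 CPM in KO1 (-1.51, SE 0.047, edgeR adjusted p = 1.34e-32). Afp had 756 and 701 CPM in WT and 353 and 353 CPM in KO1 (-1.04, SE 0.047). Trf, the iron carrier transferrin, fell from 762 and 689 CPM to 216 and 215 CPM (-1.75), Igfbp1 from 170 and 163 CPM to 41.3 and 38.6 CPM (-2.06) and Fgb, fibrinogen beta, from 51.4 and 46.2 CPM to 18.1 and 19.0 CPM (-1.40). The clones differed here. Alb was at 522 and 470 CPM in KO2 (-0.62 against WT) and at 1760 and 1883 CPM in KO3 (1.25), while Igfbp1, Trf and Fgb were called lower in all 3 clones. Of the complement genes in this list, some rose and some fell. C3, the central component, rose from 69 and 61.8 CPM to 267 and 227 CPM (1.92, SE 0.071), and Cfi, a protease that inactivates it, rose by 0.76, while Cfb and Masp1 were called lower. Cp, the copper oxidase ceruloplasmin, rose by 0.93 and Lect2 by 0.28.

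**Figure D5:**
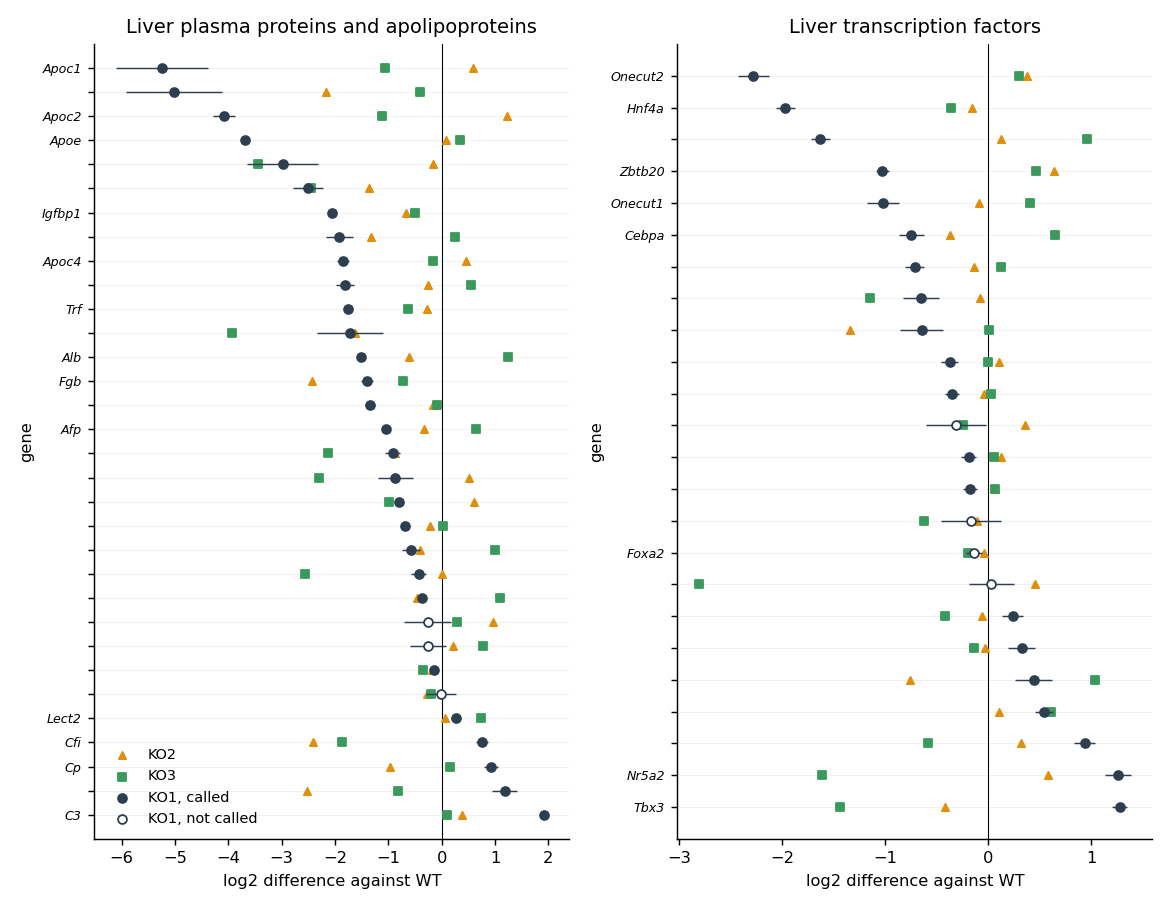
Each row is 1 tested gene, of 32 liver plasma proteins on the left and 24 liver transcription factors on the right, with its log2 difference against WT on the x axis, as circles with their SE for KO1 (filled where called), triangles for KO2 and squares for KO3. In KO1, 24 plasma protein genes are called lower and 5 higher, and among the factors 13 are lower and 7 higher. Names are printed for the genes that the text describes.

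Liver transcription factors went both ways. Of 24 tested, 13 were lower and 7 higher (median -0.25), and outside the 8 runs 7 were lower and 7 higher of 18 (median -0.15). The shares of all genes tested were 24.6% lower and 22.1% higher (outside the 8 runs 17.2% and 24.6%). Hnf4a, the nuclear receptor central to hepatocyte identity, had 111 and 105 CPM in WT and 31.3 and 23.7 CPM in KO1 (-1.97, SE 0.091, edgeR adjusted p = 3.29e-25), and it lies on chromosome 2 in a run with a median of 0.096. In KO2 it had 92.8 and 98 CPM and was not called against WT (-0.16), and in KO3 it was lower by 0.36. Onecut2 (HNF6-related) fell by 2.28, Onecut1 by 1.02 and Zbtb20, a repressor of Afp in the adult liver, by 1.03. Cebpa, on chromosome 7, fell from 32.2 and 32 CPM to 18.3 and 19.9 CPM (-0.75, SE 0.119), which is 0.31 below the median of its chromosome. The factors that rose were led by Tbx3, a T-box repressor (83.3 and 69.6 CPM in WT, 197 and 172 CPM in KO1, 1.28) and the bile acid regulator Nr5a2 (1.26). Foxa2, a pioneer factor of endoderm, was not called (-0.14, edgeR adjusted p = 0.138).

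Enzymes and transporters of hepatocytes showed no common direction. Of 31 enzymes, 12 were lower and 8 higher (median -0.0511), and outside the 8 runs 9 and 7 of 27 (median 0.052), where 24.6% of all genes tested were lower and 22.1% higher. Fah, the last enzyme of tyrosine breakdown, fell by 1.25, and Ass1 of the urea cycle by 1.15. Among the rises, Gsta3 (2.43) and Fmo5 (1.54) had at most 3.42 CPM in any library. Of 12 transporters and bile acid genes, 5 were higher and 4 lower (outside the 8 runs 5 and 3 of 11). Slc2a2, the glucose transporter of hepatocytes, had 0.276 and 0.172 CPM in WT and 2.8 and 2.75 CPM in KO1 (3.58, SE 0.584), and Cyp7b1, an oxysterol hydroxylase, rose from 5.34 and 4.65 CPM to 14.5 and 15.8 CPM (1.60).

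Cholesterol synthesis genes were lower. Of 24 genes, all tested, 21 were lower and none higher, with a median log2 difference of -0.73, and outside the 8 runs 17 of 20 were lower, with a median of -0.67. Of all genes tested, 24.6% were lower and 22.1% higher, and outside the 8 runs 17.2% were lower. Dhcr7, the last step of the pathway, fell from 40 and 43.7 CPM to 17.5 and 15.9 CPM (-1.32, SE 0.116), and Msmo1, a sterol demethylase, from 73.1 and 76 CPM to 29.6 and 32.9 CPM (-1.26, SE 0.09). Srebf2, the factor that drives the pathway, fell from 343 and 354 CPM to 201 and 215 CPM (-0.75), and it lies in the run that holds Eef1d. None of the 24 was lower in KO2, where 8.86% of all genes tested were. In KO3, 5 were lower, near the 22.3% of all genes tested. The direct comparison had 20 lower in KO1 than in KO2, where 26.9% of all genes were. Of the fatty acid synthesis genes, 10 of 16 were lower and 2 higher (median -0.29), outside the 8 runs 8 and 1 of 13, and Scd1 fell by 0.59 and Fasn by 0.24.

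Genes of the actin cytoskeleton and targets of SRF and YAP were lower, with 20 of 29 lower and 3 higher (median -0.33, and outside the 8 runs 15 of 23 lower, median -0.605). Of all genes tested, 24.6% were lower and 22.1% higher, and outside the 8 runs 17.2% were lower. Ccn2 (CTGF), a YAP target, fell from 2954 and 2920 counts to 798 and 577 counts (-2.06, SE 0.072), and the immediate early gene Egr1 from 136 and 130 CPM to 35.5 and 32.7 CPM (-1.96). Actg1, cytoplasmic gamma actin, fell from 1963 and 2018 CPM to 1047 and 1013 CPM (-0.95, SE 0.039), while Actb had 7414 and 7544 CPM in WT and 7555 and 7433 CPM in KO1 (0.003, edgeR adjusted p = 0.945). The keratins Krt8 and Krt18 fell by 0.72 and 0.75.

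Matrix genes were split, with 16 lower and 13 higher of 38 (outside the 8 runs 13 and 11 of 32). The shares of all genes tested were 24.6% lower and 22.1% higher (outside the 8 runs 17.2% and 24.6%). Spp1, osteopontin, fell from 310 and 310 CPM to 45.7 and 48.7 CPM (-2.72, SE 0.066), and Col12a1 from 24.6 and 26.7 CPM to 1.75 and 2.85 CPM (-3.48). Thbs1, thrombospondin 1, rose from 357 and 344 CPM to 1028 and 898 CPM (1.46, SE 0.049), and Fn1, fibronectin, fell by 0.29.

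Interferon-stimulated and antigen presentation genes had 9 higher, 1 lower and 14 not called of 24 (median 0.19), and outside the 8 runs 9 higher and none lower of 22. Of all genes tested, 22.1% were higher and 24.6% lower (outside the 8 runs 24.6% and 17.2%). Ifih1, an RNA sensor, rose from 8.37 and 6.55 CPM to 18.4 and 17.7 CPM (1.28), Psmb8, a subunit of the immunoproteasome, by 1.24 and the class I gene H2-D1 by 0.43. The member that fell, Mx1, on chromosome 16, had 36 and 28 counts in WT and none in KO1.

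Ribosomal protein genes divided by their place in the genome. Of 79, 40 were higher and 25 lower. Outside the 8 runs 37 of 52 were higher and 2 lower, with a median of 0.17. Rpl41 (0.84) and Rpl21 (0.69) rose most, and they lie in runs with medians of 0.24 and 0.55, while Rps15a, which fell by 0.48, lies on chromosome 7. Pseudogene copies make single ribosomal protein genes uncertain. The counts in this paragraph are to be read beside all genes tested, 22.1% higher and 24.6% lower, and outside the 8 runs 24.6% and 17.2%. DNA replication and mitosis genes had 19 higher and 10 lower of 46 (outside the 8 runs 18 and 3 of 35). The number lower of 46 is near the share of all genes tested, as are the NRF2 genes lower and the glycolysis genes higher below. E2f1 was higher by 0.64 and Ccnd1 lower by 0.35. Of 26 p53 targets, 7 were higher and 9 lower (outside the 8 runs 7 and 7 of 22), near the 22.1% and 24.6% of all genes tested, with Cdkn1a lower by 0.35. Of 26 NRF2 and glutathione genes, 10 were higher and 7 lower (outside the 8 runs 9 and 4 of 19), with Ephx1 from 46.9 and 48.6 CPM to 143 and 142 CPM (1.57). Of 24 genes of glycolysis and hypoxia, 6 were higher and 12 lower (outside the 8 runs 5 and 7 of 18, median -0.0177), with Hif1a lower by 0.8 and Vegfa by 0.94.

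Markers of other liver cell types were checked as well. Of 23 in the list, 10 were tested, 6 were lower (Krt7, Spp1, Des, Pecam1, Sox9 and Dcn) and 2 higher (Csf1r and Col1a1), none of them in the 8 runs. Outside these runs, 17.2% of all genes tested were lower and 24.6% higher. The summed level of the list was 1421 and 1352 CPM in WT and 957 and 1024 CPM in KO1. Some markers had no counts in the 4 libraries: Cdh5, Kdr and Tek (endothelial cells), Adgre1 (macrophages), Cd3e (T cells), and Lrat and Lum (stellate cells or fibroblasts). Acta2, Itgam, Krt19, Pdgfrb, Ptprc and Stab2 had counts, but under 10 in each library. Other markers of these cell types had enough counts to be tested (Pecam1, Csf1r, Des, Dcn and Col1a1), so the list does not settle which cell types are absent. Csf1r, the receptor of macrophage growth factor, rose from 2.85 and 5.34 CPM to 17.4 and 17 CPM (2.05, SE 0.205), and the bile duct keratin Krt7 fell from 57.7 and 52.4 CPM to 6.22 and 8.83 CPM (-2.88).

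KO1 also differed from the other clones. Against KO2, which was made with the same guide plasmids, 2799 genes were higher in KO1 and 3160 lower, and against KO3 3406 were higher and 3660 lower, in a fit of all 8 RNA-seq libraries. The median absolute log2 difference was 0.312 against KO2 and 0.377 against KO3, where it was 0.257 against WT. Of the 99 tested hepatocyte genes, 45 were lower in KO1 than in KO2 and 27 higher, where 26.9% and 23.8% of all genes were, and the counts against KO3 were 45 and 30, where it was 31.1% and 29%. Of the 8 tested defining hepatocyte markers, 7 were lower in KO1 than in KO2 and none higher, and 6 were lower than in KO3 and none higher.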

How the data were processed

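RNA-seq of WT and KO1 Hepa1-6 cells, 2 libraries each, was analysed, with KO2 and KO3 for comparison. According to the methods of the study and the submitters' processing notes, the authors trimmed reads with fastp 0.21.0, aligned them with STAR 2.7.0a to mm10 with GENCODE vM23, and counted A-site positions on each coding sequence without its first and last 5 codons. The labels name polyA RNA, whereas the methods name rRNA depletion with a strand-specific kit, and which holds was not settled. The deposited values are raw counts per transcript (67139 transcripts), without normalization or pooling. A read that fits several transcripts is counted on each.

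Per gene symbol, the transcript with the largest sum over all 16 libraries was kept. Counts were tested with edgeR 4.0.16 in R 4.3.3 (filterByExpr, TMM factors between 0.9975 and 1.005, quasi-likelihood test, two-sided, Benjamini-Hochberg adjusted p under 0.05). KO1 was fitted with WT alone, and was set against KO2 and KO3 in a fit of all 8 RNA-seq libraries. KO2 and KO3 against WT were fitted separately. CPM are counts scaled to the TMM-adjusted library total, and SE is the log2 difference divided by the square root of F. The fit was tested on simulated data. Genes were placed by GENCODE vM21 (GRCm38). Each chromosome was divided into runs of at least 30 genes by least squares on log2 differences clipped at 1.5, with a penalty per run of 4 times the variance and the logarithm of the number of genes. Promoters are RefSeq's.

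Genes were named by rule: the 12 largest rises and falls among called genes with at least 10 CPM in the higher group and no overlap of replicates, up to 4 called members each way per list, genes at 0 in one line with at least 50 counts in the other, and 15 chosen genes. Other list members, such as Phgdh, Igfbp1 and Actg1, and all members given as not called, were chosen after their values were seen. Some genes that the rule names are not reported here. Members and lists were chosen with earlier results of these data known. Alternatives were DESeq2 1.42.0, other scalings, filters, transcripts and thresholds, a replicate block, and each library left out.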

Additional observations from a re-analysis of the deposited data

Results flagged for a closer look

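Genes named for their size of change or by choice were flagged where KO1 and another clone were called in opposite directions against WT and the direct difference between the clones was called as well, by edgeR in the fit of all 8 RNA-seq libraries. The differences below are on the log2 scale, KO1 minus the other clone, and no cause was tested.

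Genes of the amino acid response and of hepatocytes were lower in KO1. Atf4 differed by -1.24 (SE 0.064) from KO2 and by -1.18 (SE 0.064) from KO3. Asns differed by -1.01 from KO2, Trib3 by -4.16 from KO3 and Ddit3 by -1.11 from KO3. Alb differed by -2.76 (SE 0.057), Afp by -1.70 and Cebpa by -1.40 from KO3. In the apolipoprotein cluster, Apoe differed by -4.04 (SE 0.064) from KO3 and Apoc2 by -5.31 from KO2, and the value of -5.31 for Gm44805 comes from the same reads.

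Among the genes with the largest falls, Tnfrsf11b differed by -8.44 from KO3, Mmp10 by -5.35 from KO2, and Ano1 by -5.11 from KO2 and by -5.51 from KO3. Tnfrsf11b was called lower in KO2 too (-6.89 against WT). Among those with the largest rises, Enah differed by 6.03 from KO3, Sytl5 by 5.60, Dpysl3 by 5.97, Zbtb7c by 5.35 and Pik3ap1 by 5.86, all against KO3. Enah, Sytl5, Dpysl3 and Pik3ap1 were called higher in KO2 too (0.75, 0.79, 1.92 and 1.32 against WT), and Zbtb7c was not called there. Mmp9 differed by 3.96 from KO2 and by 6.99 from KO3.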

How the results depend on the processing

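Counts of calls kept within 1.5 times under the other scalings, filters, transcripts and fits, with these exceptions. DESeq2's Wald test called 3392 genes in KO1 against WT (1507 higher, 1885 lower) and 15 hepatocyte genes higher. The 2 ATF4 list members that were higher became 1 with DESeq2, with an adjusted p under 0.01 and with all 8 RNA-seq libraries in 1 fit, and between 1 and 2 when a library was left out. Leaving out a library gave between 16 and 20 higher hepatocyte genes, with 16 without WT replicate 2. Without the genes of the shifted chromosome regions, an alternative chosen after the data were seen, 1581 genes were lower, 334 of them by at least 2-fold, and 33 hepatocyte genes were lower. The cause of these differences was not tested, but fewer genes are counted in the last. Without a library, between 4055 and 4720 genes were called. Of 5376 calls, 3371 were made in the same direction by DESeq2 and 5342 with library totals alone. Of 180 named genes, 156 kept their call and direction in every alternative that gave a value, none reversed, and 22 lost their call in at least 1. Genes with under 10 counts in a library gave no value under that filter.

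With the replicate number as a block, 5954 genes were called in KO1 against WT, 48 of the ATF4 list and 79 hepatocyte genes. The differences between replicates 1 and 2 correlated with r = 0.124 between WT and KO1 across 11756 genes, and between 0.0322 and 0.137 over all pairs of lines. No label says that a number is shared between lines, so the block is given only here and for Rrbp1, the 1 named gene whose call it changed.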

Other observations

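Other runs of genes were found by the same division in the other clones, given here as values. In KO2, 5 runs of 32 had a median of at least 0.25 in size, 2 lower and 3 higher, and in KO3 it was 11 of 44, 4 lower and 7 higher. In KO1 it was 8 of 30. The chromosomes with the largest median size in KO3 were chromosome 6 (-0.33), chromosome 12 (0.32) and chromosome 18 (0.32).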
